A study of Homo sapiens with 26 samples.

Results

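The regions described here are places on the genome where the estrogen receptor (ER) was listed after every hormone treatment in T47D cells labelled as deficient in the progesterone receptor (PR). They were chosen by list membership alone. The sites of all 10 deposited lists of receptor sites were merged into union regions wherever they shared 1 bp or more. A region was kept if it held an ER site of PR-deficient T47D cells with estradiol (E2), with R5020 and with both hormones, and if it lay in 5 or fewer of the 10 lists. This gave 820 of 64490 union regions (1.27%). Their presence in those 3 lists is therefore the choice itself and not a result, and the limit of 5 lists left room for at most 2 of the 7 T47D lists.

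T47D is an established human breast cancer cell line that carries both receptors, and the PR-deficient cells are labelled as a form of it. The labels do not say how PR was lost, how much PR is left or whether the cells are 1 clone. PR-deficient T47D cells given E2, R5020 or E2+R5020 and T47D cells given the same treatments had all been deprived of steroids for 48 hours beforehand, and each hormone was used at 10 nM for 45 min. Chromatin was then precipitated with an antibody to ER in both lines, with an antibody to PR in T47D, and with the ER and then the PR antibody in sequence (reChIP) in T47D given E2+R5020. Of the 26 samples, 10 came with a list of sites, 3 in PR-deficient T47D and 7 in T47D, and each list is 1 library with a vehicle library subtracted (and IgG for the reChIP). No value has a replicate error, and no test between treatments or lines was possible. Ranges in brackets after a percentage are 95% intervals (exact, Clopper-Pearson). They cover counting error alone, and regions of 1 library are not replicates, so the differences described were not tested. Read depth is unknown. The 3 lists of PR-deficient T47D share 1 subtracted vehicle library, and what this adds to their overlap was not tested. Cell line, vehicle library and loss of PR cannot be told apart between PR-deficient T47D and T47D.

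ER is a ligand-activated transcription factor. When E2 binds it, ER dimerises, settles at estrogen response elements and at open enhancers held by factors such as FOXA1 and GATA3, and recruits coactivators. R5020 is a synthetic progestin that acts mainly through PR, which can meet ER on chromatin and move it to other sites in breast cancer cells. In PR-deficient cells, an ER site listed after R5020 is thus listed where the usual receptor of the hormone given is labelled as deficient. All positions below are of the hg19 build. Genes, motifs and sequence at these regions were not analysed here.

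Members were long regions, and most held 1 site of each PR-deficient list. Their median length was 2003 bp (quartiles 1437.5 and 2816 bp), against 1506 bp for the 3101 regions that held the E2 and E2+R5020 sites of PR-deficient T47D but no R5020 site (5 or fewer lists) and 255 bp for all union regions. The rule sets this in part: a member joins sites of at least 3 lists, while 80.4% of union regions lay in 1 list. A longer site also meets an R5020 site more easily, and the part of this was not tested. The shortest member was 666 bp and the longest 13894 bp. Exactly 1 site of each of the 3 PR-deficient lists was held by 626 members (76.3%), while 175 (21.3%) held 2 or more R5020 sites, up to 7. T47D sites in the same regions were left out of this count. A base common to a site of all 3 lists was found in 791 members (96.5%), with a median common span of 313 bp. The other 29 members joined sites that overlapped only in a chain. Where a region held several sites of a list, its highest-scoring site was used below.

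The sites of the 3 PR-deficient lists differed in length at members, as they did over the whole lists. Median site length at members was 1583.5 bp for E2, 298 bp for R5020 and 1775.5 bp for E2+R5020. Over all sites of these lists it was 1076.5, 236 and 1329 bp. Each list is 1 library, so treatment and library cannot be told apart here. The narrow R5020 site lay wholly inside the E2 site in 764 members (93.2%), and its centre fell in the middle 50% of the E2 site's length in 599 (73%). A short site that meets a long one lies inside it more easily, and the part of length in these counts was not tested. The centres of the E2 and E2+R5020 sites were a median of 128.25 bp apart, those of the R5020 and E2 sites 238 bp apart. All 3 centres lay within 200 bp of each other in 230 members (28%). The tightest was chr8:27631458-27632594, whose 3 centres spanned 11.5 bp. It scored 41.93 with E2, 29.13 with R5020 and 35.06 with E2+R5020 and was in no T47D list. The next tightest, chr2:85581207-85582424, chr11:85779303-85780900, chr10:5874219-5876032 and chr14:93650378-93651848, spanned 16.5, 19.5, 19.5 and 22 bp. All 5 were in no T47D list, and all 5 had the lowest R5020 score kept, 29.13. Of all members, 64.5% were in no T47D list, and 59.1% had an R5020 score above 29.13. Nothing is read from these 5 regions.

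The score of a site is the authors' own value. The labels name no unit for it, and its step differs between lists, so it is read below as a percentile, the rank of a site within its own list (100 is the highest score). Members came from the middle of the 2 estrogen lists of PR-deficient T47D. Their median percentile was 50.5 in the E2 list, 66.7 in the R5020 list and 55.2 in the E2+R5020 list. The regions without R5020 had medians of 71.7 in the E2 list and 61.6 in the E2+R5020 list, and the 7718 other regions of the R5020 list (5 or fewer lists) had a median of 26.1 there. The R5020 scores were shallow: 601 members (73.3%) lay within 1 step of the lowest score kept, as did 81.1% of the other R5020 regions. Of the members, 150 (18.3%) ranked above percentile 80 with E2, 219 (26.7%) with R5020 and 157 (19.1%) with E2+R5020. Above that mark in both estrogen lists were 134 members, in all 3 lists 22, and in none of them 462.

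A member's rank with E2 went with its rank with E2+R5020 but not with its rank with R5020. Over the 820 members Spearman's rho was 0.73 between the percentiles of E2 and E2+R5020, -0.01 between those of E2 and R5020 and 0.02 between those of R5020 and E2+R5020. These are descriptions over regions of the same libraries, all of which passed a threshold in each list, and the R5020 percentiles take few values because scores tie. The link between E2 and E2+R5020 was not particular to members: over the 3101 regions without R5020 this rho was 0.8.

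**Figure D1:**
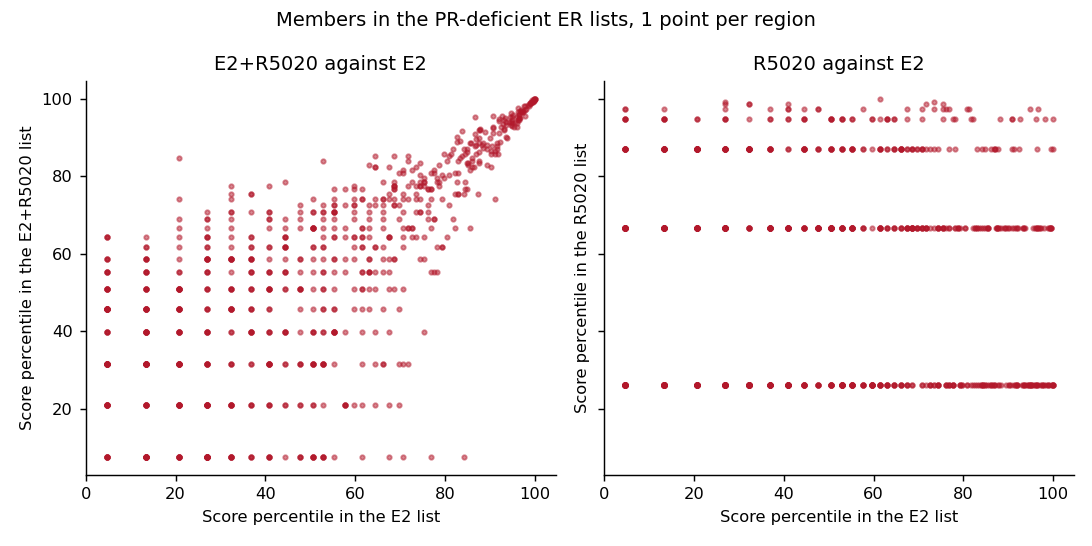
Score percentile of each of the 820 members in the PR-deficient E2+R5020 list (left, vertical axis) and in the PR-deficient R5020 list (right, vertical axis) against its percentile in the PR-deficient E2 list (horizontal axis), 1 point per region. Points rise together on the left (rho 0.73), whereas on the right they lie in rows of tied R5020 scores at every E2 percentile (rho -0.01).

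The leading members were picked by mean percentile over the 3 lists, so their high ranks are the choice and not a result. At the top was chr11:72900038-72904119, with scores of 580.53 with E2, 43.7 with R5020 and 525.91 with E2+R5020 (percentiles 99.98, 94.7 and 99.9). It also held T47D sites of PR with E2+R5020 and of the reChIP. Next came chr7:4721232-4723996, with scores of 251.56, 48.56 and 196.02 for E2, R5020 and E2+R5020, and chr17:81021335-81027026, with 316.07, 43.7 and 211.96. The region chr17:49020935-49022899 had 580.53 with E2 and 540.26 with E2+R5020 but 38.85 (percentile 87) with R5020. The others of the first 10 were chr11:46381914-46387538, chr4:2419444-2422062, chr16:68267444-68272738, chr7:56031458-56033296, chr11:67804958-67810990 and chr20:37227620-37228832. Of these 10 regions, 9 held a reChIP site of T47D, and none was free of T47D sites. The exception, chr16:68267444-68272738, held T47D sites of ER and of PR with E2+R5020. For comparison, the reChIP held 17.6% of all members and 14.7% of all union regions. In the highest 20% of E2 scores it held 46.7% of members and 30% of the regions without R5020.

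Most members were in no T47D list. No T47D list held 529 of them (64.5%, interval 61.1 to 67.8), 1 list held 222 (27.1%) and 2 lists held 69 (8.41%). Over all union regions, 10355 (16.1%) were in no T47D list, a share that the 7 T47D lists fix in large part because each region needed only 1 list of any kind. Of the 3101 regions without R5020, 1186 (38.2%, 36.5 to 40) were in no T47D list, although the limit allowed those up to 3. With no limit on the number of lists, 59.7% (56.4 to 63) of the 886 regions with all 3 PR-deficient sites and 35.8% (34.2 to 37.5) of the 3312 regions without R5020 were in no T47D list. Members in no T47D list had a median mean percentile of 49.3, those in 1 list 59.7 and those in 2 lists 69.2.

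The T47D list in which members were scarcest relative to the like regions was ER with E2. It held 35 members (4.27%, 2.99 to 5.89), against 1145 (36.9%, 35.2 to 38.6) of the regions without R5020, 50 (0.648%) of the other R5020 regions and 6.21% of all union regions. The gap was there in every class of E2 score. Among regions in the lowest 20% of E2 scores, T47D ER with E2 held 2 of 126 members (1.59%, 0.193 to 5.62) and 14 of 166 regions without R5020 (8.43%, 4.69 to 13.7). Among those in the highest 20% it held 10 of 150 members (6.67%, 3.24 to 11.9) and 567 of 1108 regions without R5020 (51.2%, 48.2 to 54.2). It was also there in every length class, with 9 of 308 members (2.92%) against 87 of 475 regions without R5020 (18.3%) among the longest E2 sites. Where T47D ER with E2 was present, its site met the R5020 site of PR-deficient T47D directly in 32 of the 35 members. The strongest of the 35 in that T47D list was chr17:55969411-55972221, with a T47D score of 64.56 (percentile 87.5).

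Under the limit of 5 lists, the other T47D ER lists held few members as well. ER with R5020 held 43 (5.24%, 3.82 to 7), against 117 (3.77%, 3.13 to 4.5) of the regions without R5020 and 8.14% of all union regions. ER with E2+R5020 held 47 (5.73%, 4.24 to 7.55), against 464 (15%, 13.7 to 16.3) of the regions without R5020 and 29.4% of all union regions. Any T47D ER list held 108 members (13.2%, 10.9 to 15.7), against 1469 (47.4%, 45.6 to 49.1) of the regions without R5020 and 40.9% of all union regions. The limit left members room for 2 T47D lists and the regions without R5020 room for 3, so it set these shares in part. With no limit, ER with R5020 held 8.8% (7.02 to 10.9) of regions with all 3 PR-deficient sites. It then held 6.52% (5.7 to 7.42) of those without R5020. For ER with E2+R5020 the shares with no limit were 9.59% and 19.8%. The sites of ER with R5020 and with E2+R5020 met the R5020 site of PR-deficient T47D directly in 20 of 43 and 18 of 47 members. Sites of these lists were short, with medians of 248 and 209 bp over the whole list, against 1171 bp for T47D ER with E2, and the part of length in these counts was not tested. The strongest member for ER with E2+R5020 was chr10:134259008-134263311 (67.42, percentile 95.9). For ER with R5020, 7 members tied at the highest score, 20.07 (percentile 76.9), among them chr12:56320361-56322844.

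Under the same limit T47D PR lists held few members too, 83 (10.1%, 8.14 to 12.4) in any of the 3, against 476 (15.3%) of the regions without R5020 and 37.1% of all union regions. PR with E2 held 30 members (3.66%, 2.48 to 5.18), against 126 (4.06%) of the regions without R5020 and 12.3% of all union regions. PR with R5020 held 18 (2.2%, 1.31 to 3.45), against 78 (2.52%) of the regions without R5020 and 9.6% of all union regions. PR with E2+R5020 held 43 (5.24%, 3.82 to 7), against 324 (10.4%, 9.39 to 11.6) of the regions without R5020 and 18.2% of all union regions. With no limit on lists, PR with E2 held 5.76% (4.32 to 7.5) of regions with all 3 PR-deficient sites. It then held 4.95% (4.24 to 5.75) of those without R5020. For PR with R5020 these shares were 4.85% (3.53 to 6.48) and 4.11% (3.46 to 4.84). For PR with E2 and PR with R5020 the intervals overlapped with and without the limit, so no order is read from them. For PR with E2+R5020 the shares with no limit were 9.48% (7.63 to 11.6) and 15.7% (14.5 to 17). Most PR sites in members did not touch the R5020 site of ER in PR-deficient T47D: they did in 7 of 30 members for PR with E2, 2 of 18 for PR with R5020 and 15 of 43 for PR with E2+R5020. Median site lengths over these lists were 249, 149 and 292 bp. The strongest were chr17:75276696-75280689 for PR with E2 (29.13, percentile 96), chr11:130015528-130017894 for PR with R5020 (41.28, percentile 97.9) and chr3:193876171-193878676 for PR with E2+R5020 (57.28, percentile 99).

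The T47D list most often found at members was the reChIP of ER and PR with E2+R5020. It held 144 members (17.6%, 15 to 20.3), against 629 (20.3%, 18.9 to 21.7) of the regions without R5020, 697 (9.03%, 8.4 to 9.69) of the other R5020 regions and 14.7% of all union regions. In 109 members the reChIP was the sole T47D list. In 17 it came with PR with E2+R5020 and in 9 with ER with E2+R5020. Its share depended on the E2 score. In the highest 20% of E2 scores it held 70 of 150 members (46.7%, 38.5 to 55), against 332 of 1108 regions without R5020 (30%, 27.3 to 32.8). In the classes below, from high to low score, it held 14.2%, 14.7%, 5.24% and 10.3% of members, against 18.4%, 14.7%, 9.12% and 8.43% of regions without R5020, so that the intervals of the 2 sets lay apart with members higher in the highest class alone. By length of the E2 site its share of members was lower in all 5 classes, with 8.33% of members against 9.93% of regions without R5020 among the shortest sites and 26.3% against 35.8% among the longest. The strongest reChIP site at a member was in chr14:35872179-35874875 (727.53, percentile 99.8), which was in no other T47D list. In 86 of the 144 members the reChIP site touched the R5020 site directly.

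**Figure D2:**
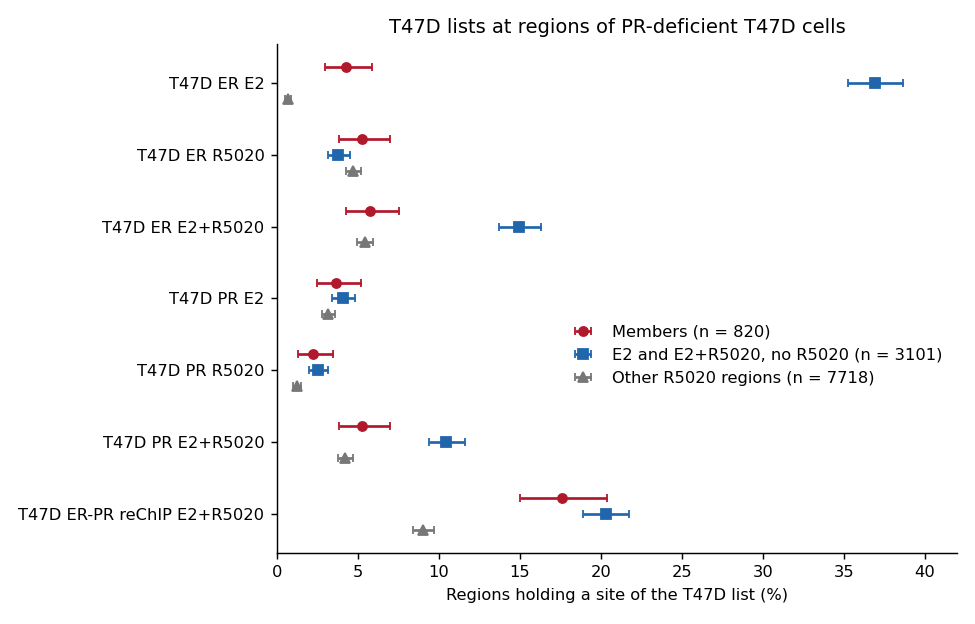
Percent of regions (horizontal axis) that held a site of each T47D list (rows) for the 820 members (red circles), the 3101 regions with the PR-deficient E2 and E2+R5020 sites but no R5020 site (blue squares) and the 7718 other regions of the PR-deficient R5020 list (grey triangles), with exact 95% intervals as bars. For T47D ER with E2 the members lie at 4.27% and the regions without R5020 at 36.9%, while for the reChIP they lie at 17.6% and 20.3%.

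The limit of 5 lists left out 66 regions with all 3 PR-deficient sites. Just inside it, the 69 members in 5 lists had a median mean percentile of 69.2 and were led by chr11:72900038-72904119, chr11:46381914-46387538 and chr16:68267444-68272738. Just outside it, the 45 regions in 6 lists had a median of 66.3 and were led by chr20:48691787-48694695, chr8:128871394-128873124 and chr14:93480907-93486539. Of those 45, 38 held the reChIP list, 27 T47D ER with E2+R5020 and 7 T47D ER with E2. These lists held 14.7%, 29.4% and 6.21% of all union regions. Each of the 45 must hold 3 of the 7 T47D lists, so high counts are set by the choice.

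Seen from the estrogen sites, an R5020 site was listed more often where the E2 score was low and the E2 site long. Of the 3921 regions with the E2 and E2+R5020 sites of PR-deficient T47D in 5 or fewer lists, 820 (20.9%) held the R5020 site. The share was 43.2% (37.4 to 49, 126 of 292) in the lowest 20% of E2 scores, 36.7%, 24.2% and 15.3% in the classes above, and 11.9% (10.2 to 13.8, 150 of 1258) in the highest. By length of the E2 site it was 9.15% (7.23 to 11.4) at 371 to 913 bp and 39.3% (35.9 to 42.9) at 1884 to 12534 bp. Both went together: among the longest sites it was 57.4% (44.8 to 69.3) in the lowest 20% of scores and 28.7% (23.8 to 34) in the highest, and among the shortest 25.8% (15.5 to 38.5) and 1.33% (0.162 to 4.73). A long site can meet a second site more easily, and the part of length in these shares was not tested. By E2+R5020 score there was no such order: the share was 19.9% (15.9 to 24.4) in the lowest 20%, 26.2% in the middle and 16.2% (14 to 18.7) in the highest.

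**Figure D3:**
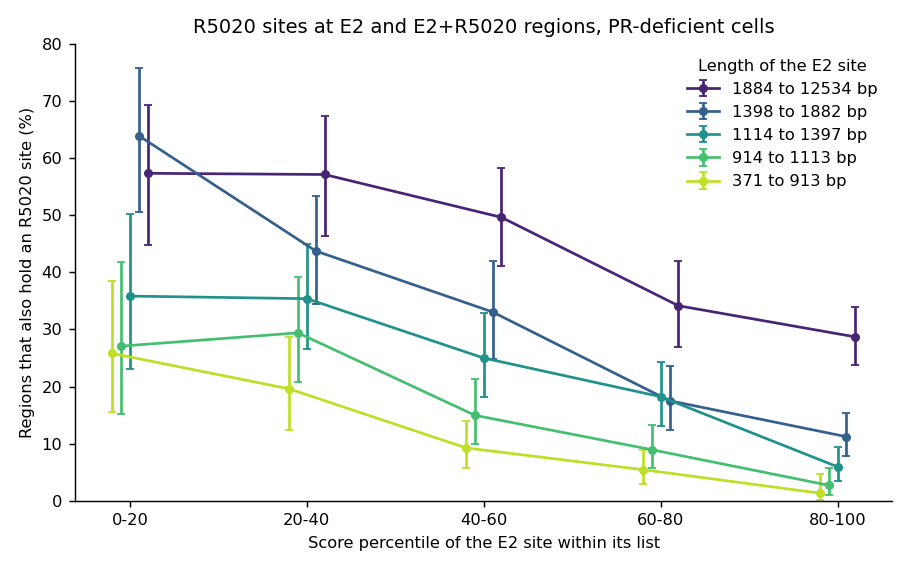
Percent of the 3921 regions shared by the PR-deficient E2 and E2+R5020 lists that also held an R5020 site (vertical axis), by score percentile of the E2 site (horizontal axis) and by length of the E2 site (1 line per length class, exact 95% intervals as bars). The line of the longest sites runs at 57.4% on the left and 28.7% on the right, that of the shortest at 25.8% and 1.33%.

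The R5020 sites of PR-deficient T47D were denser near the centres of the estrogen sites than farther away, as were the sites of every T47D list. This was counted over all 4198 regions shared by the PR-deficient E2 and E2+R5020 lists, with or without an R5020 site and with no limit on lists. Within 250 bp of the centre of the E2 site there were 237 R5020 sites per kb per 1000 regions, against 11.6 at 50 to 100 kb, a ratio of 20.4. Between 500 and 1000 bp the density was 57.6 and between 1000 and 2000 bp 22.3. The same profile of T47D ER with R5020 ran at 66.2 and 5.62 (ratio 11.8) and that of T47D ER with E2 at 498 and 4.71 (ratio 106). T47D PR with E2 (ratio 3.92) and with R5020 (6.01) were less centred there. T47D PR with E2+R5020 stood at 14.7, T47D ER with E2+R5020 at 20.9 and the reChIP at 34.6. No control regions were profiled, and the cause of these ratios was not tested. Sites of a longer list or greater length meet a centre more often, and their part in these ratios was not tested.

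**Figure D4:**
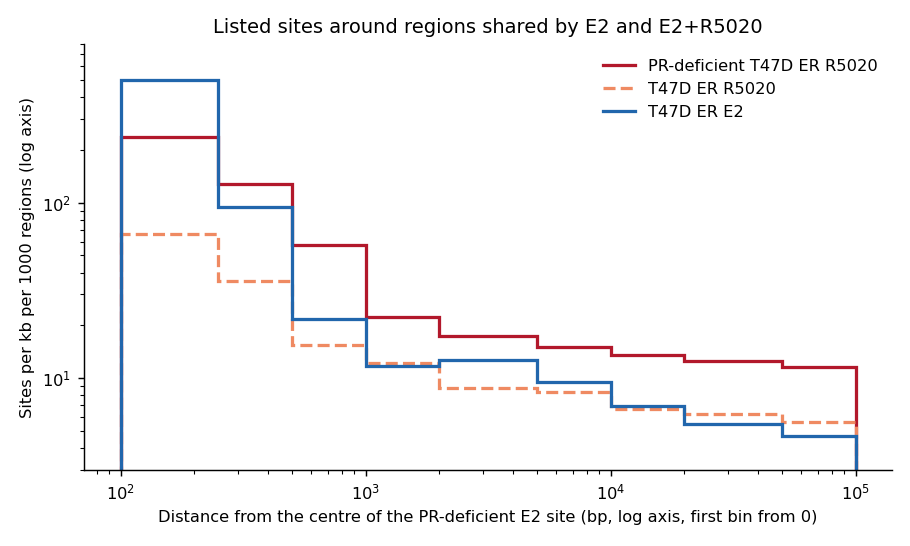
Listed sites per kb per 1000 regions (vertical log axis) by distance from the centre of the PR-deficient E2 site (horizontal log axis) around the 4198 regions shared by the PR-deficient E2 and E2+R5020 lists, for ER with R5020 in PR-deficient T47D (red), ER with R5020 in T47D (orange, dashed) and ER with E2 in T47D (blue). All 3 are higher within 250 bp than at 50 to 100 kb. The red line stands at 237 within 250 bp and 11.6 at 50 to 100 kb.

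Members and the regions without R5020 differed in which sites lay near them. Another R5020 site of PR-deficient T47D, outside the region itself, lay within 50 kb of 519 members (63.3%, 59.9 to 66.6), against 1247 of the 3101 regions without R5020 (40.2%, 38.5 to 42). Members were chosen for a site of this same R5020 list and the other regions for lacking one. Any crowding of its sites thus makes such a gap by construction, and nothing is read from it. T47D sites outside the regions were not used in the choice. Where they crowd in the same places as the R5020 sites, the choice still enters the shares below. How much it does was not tested. An ER site with R5020 of T47D lay within 50 kb of 40.7% (37.3 to 44.2) of members and 25.7% (24.2 to 27.3) of the regions without R5020. A PR site of T47D with E2, which had no progestin, did so for 57.4% (54 to 60.9) of members and 39.4% (37.7 to 41.2) of the regions without R5020. For PR with R5020 the shares were 40.4% of members and 30.1% of the regions without R5020, and for PR with E2+R5020 59.9% and 48.6%. The gaps were smaller for T47D ER with E2+R5020, at 61.6% of members and 56.7% of the regions without R5020, and for the reChIP, at 48% and 43.8%. The order turned for the sites of ER with E2. Those of T47D lay near 27% (23.9 to 30.1) of members and 41.2% (39.5 to 43) of the regions without R5020, and those of PR-deficient T47D near 58.7% and 63%. PR-deficient E2+R5020 sites lay near 54.9% of members and 54.1% of the regions without R5020. The median distance from a member to the next was 245 kb, against 78.2 kb between the regions without R5020. Those are more numerous and so lie closer by number alone, and the part of number was not tested.

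Members were uneven over the chromosomes. Chromosomes 11, 7, 16, 12 and 20 held 84, 70, 64, 58 and 53 of them, together 40.1% of members, against 30.8% of all union regions and 26.3% of the regions shared by the PR-deficient E2 and E2+R5020 lists. The same chromosomes carried 46.9% of the R5020 sites of PR-deficient T47D and 31.2% of the ER sites with R5020 of T47D. As a share of the regions shared by E2 and E2+R5020, members made up 34.1% (27.7 to 41.1) on chromosome 7, 32.9% (25.7 to 40.8) on chromosome 20 and 32.4% (26.8 to 38.5) on chromosome 11. They made up 7.53% (4.18 to 12.3) on chromosome 2, 8.82% (3.31 to 18.2) on chromosome X and 9% (4.2 to 16.4) on chromosome 22. Over the 22 chromosomes with at least 50 such regions, Spearman's rho of this share was 0.77 with the number of R5020 sites per Mb and 0.34 with that of E2 sites. The share counts sites of the same R5020 list, so more R5020 sites on a chromosome raise it by construction, and nothing is read from these values. Copy number of the chromosomes was not measured here, and its part in these shares was not tested.

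**Figure D5:**
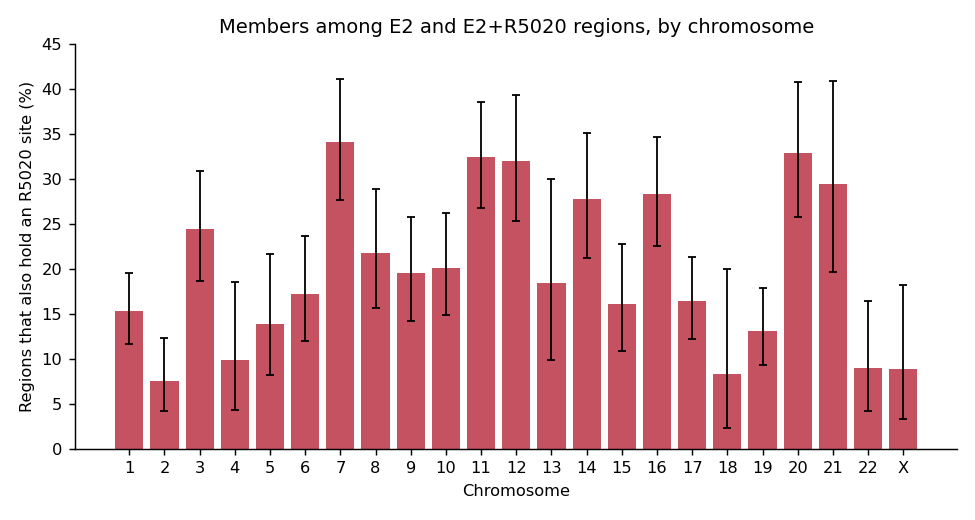
Percent of the regions shared by the PR-deficient E2 and E2+R5020 lists that also held an R5020 site and so were members (vertical axis), by chromosome (horizontal axis), in 5 or fewer lists, with exact 95% intervals. Bars run from 7.53% on chromosome 2 to 34.1% on chromosome 7. Chromosome Y, with 1 such region and no member, is not drawn.

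In windows of 5 Mb, members lay in 280 windows, and 127 of these held a single one. The fullest was chr11:65000001-70000000, with 23 members among 40 regions shared by E2 and E2+R5020 (57.5%). The window before it, chr11:60000001-65000000, held 15 of 24 (62.5%), chr12:50000001-55000000 held 17 of 32 (53.1%) and chr16:85000001-90000000 held 15 of 26 (57.7%). Over all regions shared by E2 and E2+R5020 in 5 or fewer lists, this share was 20.9%. The windows were picked for their members, each with an R5020 site, so high shares and R5020 counts follow from the choice. In these 4 windows PR-deficient T47D had 240, 185, 212 and 292 ER sites with R5020. T47D had 63, 51, 26 and 86. With E2, PR-deficient T47D had 69, 56, 53 and 53 ER sites there, and T47D had 12, 14, 23 and 11. The whole lists differ in size: PR-deficient T47D had 9141 ER sites with R5020 and 7742 with E2, T47D 5338 and 4014. Nothing is read from these counts. The window with the most T47D sites of ER with R5020 among the 12 fullest, chr3:190000001-195000000, held 209 of them, 85 R5020 sites of PR-deficient T47D and 12 members. Few members lay next to long stretches (3 Mb or more) without any site in the 10 lists: 22 (2.68%) were 2 Mb or less away, against 60 (1.93%) of the regions without R5020, 7.88% of the other R5020 regions and 9.87% of all union regions. No member was on chromosome Y.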

How the data were processed

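Sites of ER, PR or the reChIP were measured by ChIP-seq in PR-deficient T47D and T47D cells, and samples were grouped by their titles, 26 groups of 1 library. Bowtie2, MACS and the hg19 build are named, without versions or settings, per the submitters' processing notes. The deposited score per site is the authors' value, in an unstated unit. Scores rise in even steps (100% of them within 0.02 of a step), the smallest 0.582 (ER with E2, T47D) and the largest 8.66 (reChIP). The other deposited column used is length in bp. Lists hold 4014 to 19220 sites. Read depth is unknown.

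Lists were merged and counted with pandas 2.3.3, NumPy 2.4.6 and SciPy 1.17.1 (Python 3.11.15) and drawn with matplotlib 3.10.9. Percentiles rank scores within a list, ties averaged. Merging was tested on simulated lists. The members and lists were chosen with earlier results of these data known. Named regions are the first 10 by mean percentile, the strongest in each T47D list (1 of those tied), the 5 with the closest centres and the 3 on each side of the limit. Planned searches for motifs and genes were not run, because the reference used here is of another build (GRCh38).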

Additional observations from a re-analysis of the deposited data

How the results depend on the processing

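No paired analysis was possible because there is a single library per group. The direct overlap of T47D sites with PR-deficient sites changed no count. Merging within 500 bp, a base common to the 3 PR-deficient sites, leaving out chromosome Y and the surroundings of long stretches without sites, and leaving out chromosome 11 moved none of the 6 main values (member count, share in no T47D list, shares of members held by T47D ER with E2 and by the reChIP, share of E2 and E2+R5020 regions with R5020, and share of the regions without R5020 held by T47D ER with E2). With sites of 200 bp around their centres they were 359, 79.4%, 5.29% (unmoved), 11.1%, 12.2% and 32.3%. With the lowest score raised by 1 step in all lists there were 421 members, with 22.1% held by the reChIP, and 12% of the E2 and E2+R5020 regions held R5020. Raised in the R5020 list alone, these were 485 members and 12.3%, and T47D ER with E2 held 33.7% of the regions without R5020. In the higher-scoring 50% of each list there were 221 members, 69.7% of them in no T47D list and 2.26% held by T47D ER with E2, against 34.3% of the regions without R5020, and R5020 was present in 9.71%. With no limit on lists the share in no T47D list was 59.7%, the reChIP held 22.1%, and T47D ER with E2 held 39.4% of the regions without R5020. With 4 or fewer lists the values were 70.4% in no T47D list, 2.8% held by T47D ER with E2 and 14.5% by the reChIP, and 529 members lay in the PR-deficient lists alone. The share of members at one place was 28% when all centres had to lie within 200 bp. Members above the middle of their list were 51.3% for E2, 59.1% for R5020 and 61.1% for E2+R5020, and 1.22% lay within 1 Mb of a long stretch without sites. In each setting that gave both shares, T47D ER with E2 held a smaller share of members than of regions without R5020. The cause of these moves was not tested. The alternative window for motifs was not run. Read depth is unknown, and its part in the member count was not tested.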

Other observations

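Regions where R5020 was shared with 1 estrogen treatment of PR-deficient T47D differed from the members in number. R5020 and E2+R5020 without E2 marked 539 regions in 5 or fewer lists, and E2 and R5020 without E2+R5020 marked 265. T47D ER with E2 held 2 of the 539 (0.371%, exact interval 0.045 to 1.33) and 9 of the 265 (3.4%, 1.56 to 6.35). T47D ER with R5020 held 40 (7.42%, 5.35 to 9.97) and 22 (8.3%, 5.28 to 12.3), and the reChIP 56 (10.4%, 7.94 to 13.3) and 34 (12.8%, 9.05 to 17.5). Over all union regions T47D ER with E2 held 6.21%, T47D ER with R5020 8.14% and the reChIP 14.7%. The limit of 5 lists left these sets room for 3 T47D lists, against 2 for members. The shares were not tested against each other.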
